A study of Mus musculus with 6 samples.

Results

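The genes described here encode Wnt ligands, their receptors and secreted antagonists, 2 genes that respond to Wnt signals, and the Sonic hedgehog and ectodysplasin factors of the hair follicle. They were listed by a rule on gene symbols, which took all Wnt, Fzd, Dkk and Sfrp family rows of the count table. The rule also named Lrp5, Lrp6, Lef1, Axin2, Wif1, Shh, Ptch1, Gli1, Eda and Edar. This choice was made with earlier results of these data known. The rule found 47 of the 18404 genes in the table, and 42 of these had a mean of at least 10 counts per library and were compared between groups. All 42 also passed the low-count filter of the test. The 3 ecko libraries came from the ear skin of mice aged P3 (postnatal day 3) with an induced endothelial knockout of Kdr (Vegfr2), which encodes the receptor VEGFR2. The 3 control libraries came from the ear skin of littermate controls of the same age. Both groups are labelled as tamoxifen treated, and for this age the design gives daily doses of 60 µg from postnatal day 1. The series name adds 48 h. The labels do not state the promoter that drove the recombination, the genotype of the controls, or whether each library came from a single animal, so each p-value measures spread among these libraries, which may in part be technical.

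Wnt proteins are secreted lipid-modified ligands that bind a Frizzled receptor together with the co-receptor LRP5 or LRP6. In the canonical branch this stabilizes beta-catenin, which enters the nucleus and activates genes with LEF1 and other TCF factors. In developing skin, epidermal Wnt signals, ectodysplasin and Sonic hedgehog act in sequence to place and grow hair follicles, and follicles of newborn mouse skin are still being built. The knockout was aimed at endothelium, while most of these genes are known from keratinocytes, follicle cells and dermal fibroblasts. The comparison asks whether their transcripts in whole skin differed after the knockout.

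Kdr fell in ecko. It had 348, 431 and 370 counts in the ecko libraries, against 1599, 1860 and 1337 in the controls, a log2 fold change of -2.05 ± 0.12 (SE; edgeR adjusted p = 0.0002). Libraries held 16987130 to 17979182 expected counts. The keratin gene Krt5 and the collagen gene Col1a1, which mark epidermis and dermis, averaged 3288 and 8796 CPM (counts scaled to a common library size) in ecko, against 3520 and 8660 CPM in control, and none of the 13 skin markers examined was at 0. Control 3 stood apart from the other libraries. Its chi-square distance per gene to the others was 13.24 to 19.76, against 4.181 to 11.47 between the other pairs, and its skeletal muscle level was the lowest, at 7.09 mean log2 CPM against 7.50 to 7.84. The Y-linked gene Ddx3y had 1641, 1445 and 6 counts in ecko and 1551, 4 and 1469 in control, so the libraries within each group did not all come from the same animal, and ecko 3 and control 2 differed in this gene from the other 4. The part of that difference in the values below was not tested. Values of the 42 genes that control 3 moved by over 1.5 times, among those with a log2 fold change of at least 0.10 in size, are given with and without it.

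Among the ligands, Wnt4, Wnt10b and Wnt5a were the most abundant transcripts per length. Wnt4 acts in epidermis and dermis and Wnt10b is an early signal of the hair placode, while Wnt5a is the main dermal ligand of the beta-catenin-independent branch. Levels were compared between genes only as CPM per kilobase of annotated exon, which depends on the exon length assumed. Wnt4 averaged 19.8 ± 0.66 in ecko and 22.2 ± 2.17 CPM per kb in control (SD, n = 3 each). Wnt10b averaged 18.7 ± 0.81 in ecko and 19.3 ± 0.57 CPM per kb in control. Wnt5a had 13.4 ± 0.38 in ecko and 12.9 ± 1.00 CPM per kb in control. Each of these 3 stood above the next ligand in 6 of 6 libraries. Below them came Wnt7b (9.16 CPM per kb over the 6 libraries), Wnt6 (8.27), Wnt11 (7.34) and Wnt3 (6.59). Wnt7b and Wnt6, and likewise Wnt11 and Wnt3, differed by less than the larger SD over the 6 libraries. The remaining ligands compared were Wnt10a at 4.48, Wnt2, Wnt9a, Wnt16 and Wnt5b between 2.27 and 2.64, Wnt3a and Wnt2b at 1.58 and 1.56, and Wnt7a at 0.777 CPM per kb. The order within the group from Wnt2 to Wnt5b, and that of Wnt3a and Wnt2b, was not resolved beyond the spread.

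**Figure D1:**
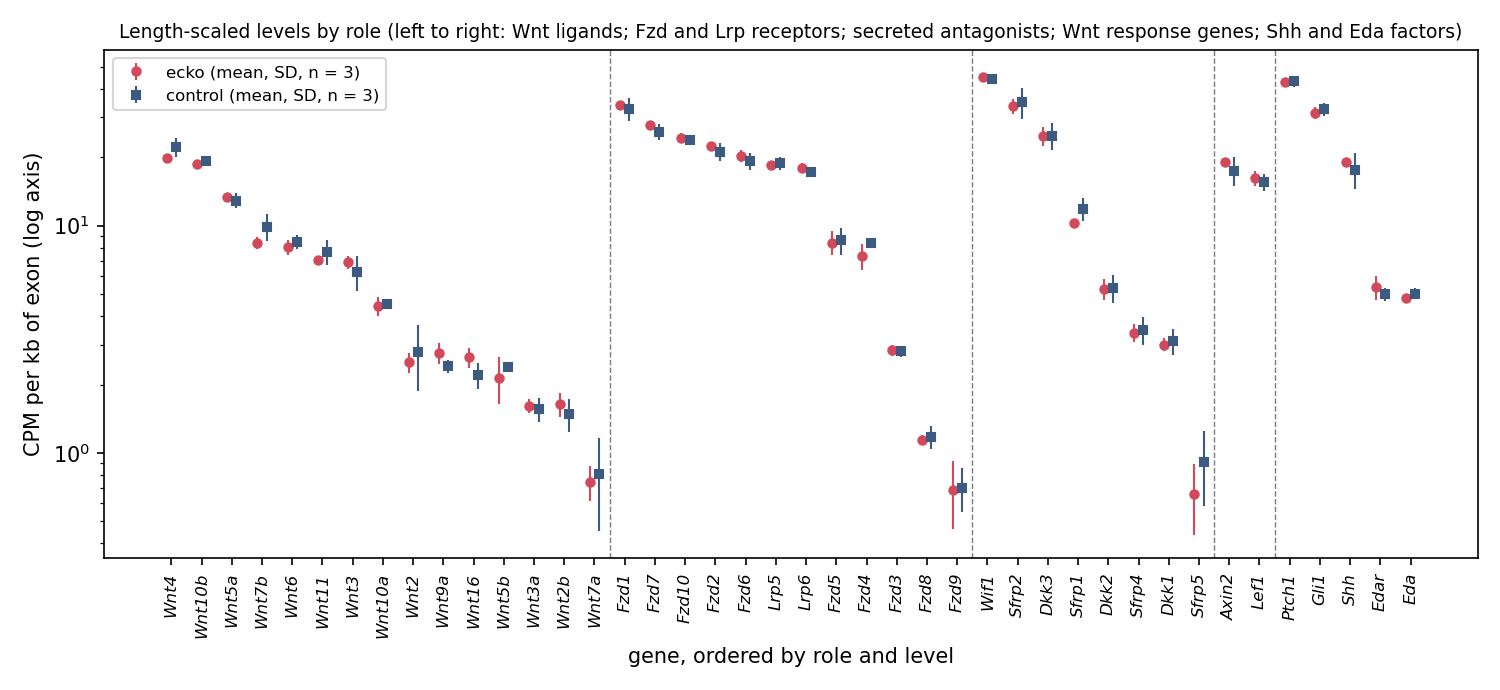
Mean CPM per kilobase of annotated exon on a log axis, with SD over 3 libraries, for the 42 genes compared, in ecko (circles, left of each pair) and control (squares). Within each role genes run from high to low over all 6 libraries. The ligands span Wnt4 to Wnt7a.

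The 5 genes below a mean of 10 counts were Wnt1, Wnt8a, Wnt8b, Wnt9b and Dkk4. Wnt1 had a single count in all, in ecko 2, and Wnt8b had 1 count each in ecko 3 and control 3. Wnt8a had 0 to 1 counts per ecko library and 0 to 5 per control library. The antagonist gene Dkk4, a marker of early placodes, had 0 to 1 in ecko and 0 to 2 in control. Wnt9b lay closest to the limit from below, with 5, 4 and 11 counts in ecko and 13, 10 and 13 in control. Closest from above was the antagonist gene Sfrp5, with 27, 27 and 13 counts in ecko and 28, 44 and 21 in control.

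Several Wnt genes lie beside each other in the mouse genome (GRCm38.p6), and neighbours differed in level. Wnt10b on chromosome 15 (98770712 to 98778206) lies 11.7 kb from Wnt1, with 0 protein-coding genes between them, and averaged 1144 counts per library while Wnt1 had almost none. Wnt6 lies 6.7 kb from Wnt10a on chromosome 1 and had 8.27 against 4.48 CPM per kb, higher in 6 of 6 libraries. On chromosome 11, Wnt9a lies 16.1 kb from Wnt3a and had 2.59 against 1.58 CPM per kb, also higher in each library. The annotated spans of Wnt3 and Wnt9b overlap by 1.1 kb on chromosome 11.

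Receptor transcripts were led by Fzd1, with 34.0 ± 1.16 in ecko and 32.5 ± 3.77 CPM per kb in control (SD, n = 3 each), and Fzd7, with 27.7 ± 0.55 in ecko and 25.9 ± 2.08 CPM per kb in control. Fzd10, Fzd2 and Fzd6 followed with 24.1, 21.7 and 19.7 CPM per kb over the 6 libraries. The co-receptor genes Lrp5 and Lrp6 stood at 18.6 and 17.6. Fzd5 and Fzd4 were lower, at 8.52 and 7.85, and differed by less than their spread. Fzd3, Fzd8 and Fzd9 were the lowest at 2.81, 1.16 and 0.698 CPM per kb. The value of Fzd3 rests on 12.7 kb of annotated exon, the longest among these genes.

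Of the secreted antagonists, Wif1, which binds Wnt ligands directly, had the highest level, 45.2 ± 1.70 in ecko and 44.3 ± 0.79 CPM per kb in control (SD, n = 3 each). Sfrp2, a decoy with a Frizzled-like domain known from dermal fibroblasts and the dermal papilla, had 33.4 ± 2.46 in ecko and 34.9 ± 5.49 CPM per kb in control. Dkk3 (24.8 CPM per kb over the 6 libraries) and Sfrp1 (11.1) came next, and Dkk2, Sfrp4, Dkk1 and Sfrp5 ran from 5.29 down to 0.789. The hedgehog receptor gene Ptch1 (42.9) and the hedgehog effector Gli1 (31.9), both of which are induced by hedgehog signals, exceeded the ligand gene Shh (18.4 CPM per kb) in 6 of 6 libraries. Eda and its receptor gene Edar had similar levels, 4.90 and 5.18 CPM per kb.

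The 2 Wnt response genes were Axin2 (chromosome 11, 108917828 to 108950783), a negative feedback regulator, and Lef1 (chromosome 3, 131110297 to 131224357), a nuclear factor of the pathway and a marker of placodes and hair matrix. As the readouts of the pathway among these genes, their start regions are shown. The first window precedes an Axin2 start in the RefSeq table that lies inside the annotated span of the gene (plus strand, chr11:108920099-108920348). The second lies inside the gene, before an internal Lef1 start, and is shown because it alone of the 4 Lef1 windows held a match (plus strand, chr3:131156044-131156293). Capitals mark matches to a TCF/LEF core, spelled CTTTGA or CTTTGT and searched on both strands with overlaps counted.
Axin2: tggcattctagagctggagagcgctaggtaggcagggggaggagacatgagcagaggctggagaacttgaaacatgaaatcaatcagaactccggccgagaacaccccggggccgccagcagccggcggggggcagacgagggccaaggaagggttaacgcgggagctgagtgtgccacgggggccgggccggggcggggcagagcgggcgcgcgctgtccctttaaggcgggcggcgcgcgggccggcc
Lef1, internal start: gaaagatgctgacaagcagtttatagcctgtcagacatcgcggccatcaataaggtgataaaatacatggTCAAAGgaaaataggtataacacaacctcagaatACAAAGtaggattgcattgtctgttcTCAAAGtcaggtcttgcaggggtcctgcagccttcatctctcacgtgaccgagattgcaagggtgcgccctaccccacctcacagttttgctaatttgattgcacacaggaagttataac
The Lef1 window held 3 matches and the Axin2 window 0. Windows of the same 250 bases were available for 31 of the 47 genes, and 9 of these genes held the core in at least 1 window. Of all 32851 windows in the table, 27.6% held it. Some genes had several windows, such as the 4 of Lef1. The count per gene therefore cannot be set directly against the share per window. A Gli consensus, GACCACCCA on either strand, was found in 0 of the 31 genes and in 0.225% of all windows. A match is a description of letters and not of binding.

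None of the 42 genes passed the test between ecko and control. With edgeR, 0 were called at an adjusted p under 0.05, where 0.00670% of all 14920 genes tested were called (Kdr alone). At an unadjusted p under 0.05 there were 2, Sfrp1 and Wnt7b, both lower in ecko, against 4.10% of all genes lower, 4.92% higher and 9.01% in both directions. This count of 2 lower genes was 0 without ecko 1, 0 without control 3, and 1 without ecko 2 (Fzd4) or ecko 3 (Wnt5b). It stayed at 2 without control 1 (Sfrp1 and Wnt11) and without control 2 (Wnt4 and Wnt7b). Without control 1, and in no other such fit, 1 gene was also higher at that level, Wnt16 (log2 fold change 0.375). The smallest adjusted p among the 42 was 0.549. DESeq2 and limma-voom also called 0 of them, with 0 at an unadjusted p under 0.05, while DESeq2 called 0.757% of all genes. A replicate block and a skeletal muscle covariate called 0 of the 42, and 0.657% and 0.442% of all genes. In 0 of the 42 were all ecko libraries above or all below the controls, where 15.7% of all genes had groups without overlap (7.55% higher, 8.11% lower). The median log2 fold change was -0.02, against -0.002 over all genes, with 18 means higher and 24 lower in ecko. Without control 3 the split was 24 higher and 18 lower, with a median of 0.02. For 40 of 42 genes the log2 fold change was under 0.25 in size, and in all genes this share was 85.3%.

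The data also bounded how large a difference could have been missed. The 95% interval of the edgeR log2 fold change lay within 0.5 of 0 in both directions for 35 of the 42 genes, and for 10785 of the 14920 genes tested. The 7 others were Wnt2, Wnt16, Wnt5b, Wnt2b, Wnt7a, Fzd9 and Sfrp5, the last of which was the 1 gene whose interval passed beyond 1. Their means ran from 26.7 to 186 counts per library.

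**Figure D2:**
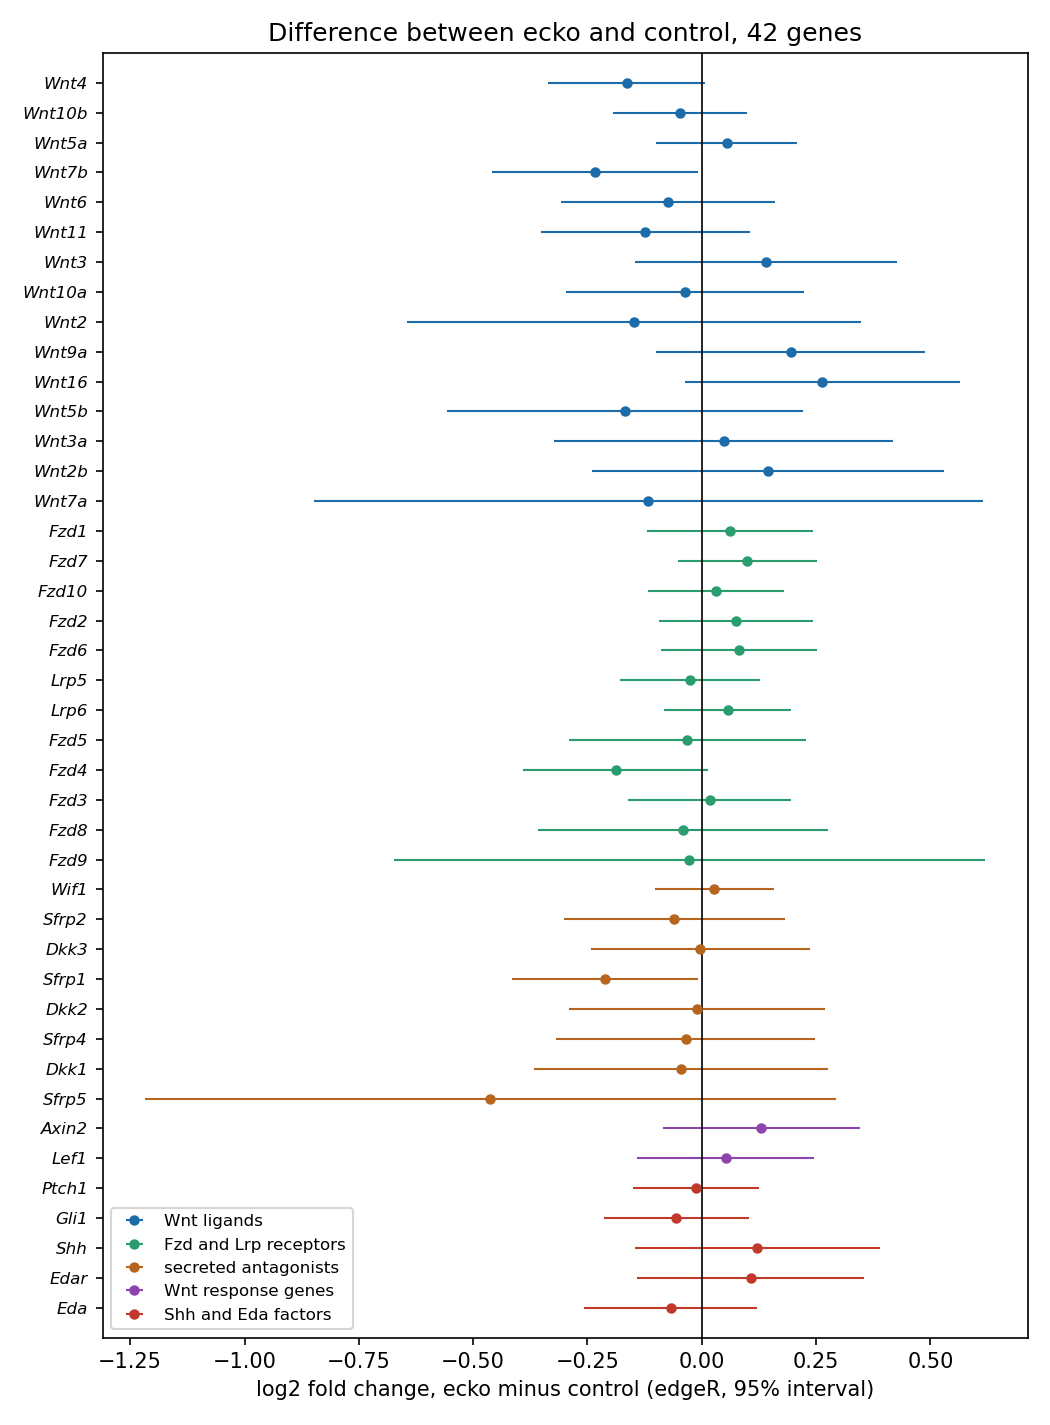
Log2 fold change, ecko minus control, from the edgeR fit with its 95% interval, for each of the 42 genes, coloured by role and ordered by level within a role. The points lie close to 0 on both sides, the intervals of Sfrp1 and Wnt7b end just below 0, and the widest belong to Sfrp5, Wnt7a and Fzd9.

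Wnt7b, an epidermal and hair follicle ligand (chromosome 15, 85535437 to 85581821), had 656, 731 and 666 counts in ecko and 815, 713 and 897 in control. Control 2 lay among the ecko libraries, so the groups overlapped. It averaged 38.8 ± 2.25 CPM in ecko and 45.7 ± 6.13 CPM in control (SD, n = 3 each), a log2 fold change of -0.23 ± 0.10 (SE; edgeR adjusted p = 0.549). Without control 3 the log2 fold change was -0.13. Wnt4 had 1476, 1446 and 1476 counts in ecko and 1662, 1518 and 1773 in control. In CPM, control 2 again lay within the ecko range and controls 1 and 3 above it. The log2 fold change of Wnt4 was -0.16 ± 0.08 (adjusted p = 0.572 by edgeR), and -0.09 without control 3. The keratin genes Krt1 and Krt10 of the suprabasal epidermis, chosen after their values were seen, also had controls 1 and 3 above all other libraries. Likewise chosen, the basal keratin genes Krt5 and Krt14 had the same order. In controls 1 and 3, Krt5 had 3567 and 3697 CPM and Krt14 had 1826 and 1834 CPM. In Krt15, also basal, control 1 lay below control 2. The dermal genes Col1a1, Col3a1 and Dcn of the same list did not have this order, and in each control 1 lay below all ecko libraries in CPM. Values of Ivl, Lor and Flg, also of that list, are not given here. Krt1 had 108409, 130690 and 106865 counts in ecko and 150049, 106178 and 146003 in control, and Krt10 had 125634, 147745 and 126756 in ecko and 163403, 112527 and 152714 in control. The summed level of the 13 skin markers, epidermal and dermal together, was 58145 to 59890 CPM in ecko and 54756 to 65536 CPM in control. Its part in the Wnt7b and Wnt4 values was not tested. In bulk skin, fewer cells of a type and less RNA per cell cannot be told apart.

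The other ligands lay on both sides of 0. Wnt16, a ligand of epidermis and follicle, had 200, 189 and 219 counts in ecko and 196, 162 and 152 in control, and its log2 fold change of 0.26 ± 0.14 (adjusted p = 0.593) was the highest among the 42 genes. It was 0.18 without ecko 3. Ecko 2 lay below control 1. Wnt10b had 1178, 1078 and 1108 counts in ecko and 1158, 1228 and 1114 in control, with an interval of the log2 fold change from -0.19 to 0.10. Wnt5a had 1748, 1652 and 1583 in ecko and 1561, 1783 and 1484 in control, with an interval from -0.10 to 0.21. In CPM, all ecko libraries lay within the control range for Wnt5a. For Wnt10b the groups overlapped in part, at 60.4 to 65.5 CPM in ecko and 64.2 to 68.0 CPM in control. Wnt3, an epidermal ligand, had 381, 355 and 387 counts in ecko and 390, 368 and 269 in control, and only control 3 was low. Its log2 fold change was 0.14, and 0.01 without control 3. Wnt7a varied more than the other ligands, with 34, 46 and 45 counts in ecko and 57, 58 and 22 in control, a coefficient of variation of 30.9% over the 6 libraries. Its log2 fold change was -0.12, and -0.43 without control 3. Wnt2, a ligand known from mesenchyme, had 90, 107 and 101 counts in ecko and 76, 112 and 144 in control, with a log2 fold change of -0.15, and 0.11 without control 3. The remaining ligands, Wnt6, Wnt11, Wnt10a, Wnt9a, Wnt5b, Wnt3a and Wnt2b, had log2 fold changes of -0.17 (Wnt5b) to 0.19 (Wnt9a) and adjusted p of 0.677 or above.

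Of the 12 receptor genes, 7 had a higher and 5 a lower mean in ecko. Fzd4, which serves Norrin as well as Wnt ligands and is known from vascular endothelium, had 877, 995 and 741 counts in ecko and 984, 1012 and 993 in control. Ecko 2 reached the control level, and the log2 fold change was -0.19 ± 0.09 (edgeR adjusted p = 0.578). It was -0.29 without ecko 2 and -0.10 without ecko 3. Endothelial markers were also lower in mean: 11 of 12, with a median log2 fold change of -0.18. In 7 of them the groups did not overlap, 6 had an unadjusted p under 0.05, and 0 passed the test. Over all genes, 8.11% were lower without overlap and 4.10% were lower at an unadjusted p under 0.05. With each library left out in turn, 10 to 12 of the 12 markers had a lower mean. Then 2 to 7 had an unadjusted p under 0.05. The 2 were without ecko 1, ecko 2 or control 2, against 3 without ecko 3 or control 1. The shares over all genes in those fits are not given here. The summed level of the 12 markers was 465 to 495 CPM in ecko and 511 to 606 CPM in control. The part of these markers in the Fzd4 value was not tested. Robo4 and Plvap, genes of blood vessel endothelium, had log2 fold changes of -0.29 and -0.21.

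Fzd1 had 2657, 2467 and 2417 counts in ecko and 2405, 2764 and 2105 in control, and Fzd7 had 2302, 2196 and 2153 in ecko and 2113, 2275 and 1860 in control. In both genes control 3 was lowest and control 2 lay within or above the ecko range. The log2 fold change of Fzd7 was 0.10, and 0.045 without control 3. The co-receptor gene Lrp6 had 3170, 2859 and 2862 counts in ecko and 2734, 3008 and 2856 in control. Lrp5 had 1998, 1883 and 1979 in ecko and 2069, 2134 and 1803 in control. Their log2 fold changes were 0.06 ± 0.06 and -0.03 ± 0.07 (SE), among the most precise of the set. Apart from Fzd4, the receptor and co-receptor genes lay between -0.04 (Fzd8) and 0.10 (Fzd7), and the smallest adjusted p of these 11 was 0.677.

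Sfrp1, a secreted Frizzled-related decoy receptor (chromosome 8, 23411383 to 23449632), had 830, 798 and 745 counts in ecko and 803, 967 and 992 in control. Control 1 lay within the ecko range. Sfrp1 averaged 44.8 ± 1.31 CPM in ecko and 51.9 ± 6.18 CPM in control (SD, n = 3 each), with a log2 fold change of -0.21 ± 0.09 (edgeR adjusted p = 0.549). It was -0.13 without control 3 and -0.30 without control 1. Sfrp5 had the lowest log2 fold change of the 42, -0.46 ± 0.34, on few counts, but it was -0.21 without ecko 3 and -0.14 without control 2, where Wnt5b and Wnt7b had the lowest values. Wif1 had 1798, 1840 and 1843 counts in ecko and 1816, 1867 and 1730 in control, and was the steadiest gene of the set with a coefficient of variation of 2.85% over the 6 libraries. Sfrp2 had 1143, 1154 and 1242 in ecko and 1097, 1184 and 1428 in control, where control 3 was high. Dkk1, Dkk2, Dkk3 and Sfrp4 had log2 fold changes of -0.05 to -0.004.

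Axin2 had 1483, 1406 and 1416 counts in ecko and 1474, 1408 and 1080 in control. All ecko libraries and controls 1 and 2 lay close together and control 3 was low. The log2 fold change was 0.13 ± 0.10 (adjusted p = 0.695 by edgeR), and 0.02 without control 3. Lef1 had 1107, 942 and 950 counts in ecko and 880, 1010 and 1017 in control, with a log2 fold change of 0.05 ± 0.09 (adjusted p = 0.875). Their 95% intervals ran from -0.09 to 0.35 for Axin2 and from -0.14 to 0.24 for Lef1.

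The hair follicle ligand gene Shh (chromosome 5, 28456840 to 28467101) had 1022, 949 and 914 counts in ecko and 950, 1031 and 692 in control. As with Axin2, control 3 alone was low. The log2 fold change was 0.12 ± 0.12 (edgeR adjusted p = 0.776), and -0.01 without control 3. Ptch1 had 6165, 5817 and 5654 counts in ecko and 5829, 5873 and 6171 in control, and Gli1 had 2233, 2153 and 2330 in ecko and 2212, 2561 and 2257 in control. The low Shh value of control 3 had no counterpart in these genes, which were there within or above the range of the ecko libraries in CPM. The intervals of the log2 fold change were -0.15 to 0.13 for Ptch1 and -0.21 to 0.10 for Gli1. Eda had 443, 426 and 426 counts in ecko and 430, 487 and 449 in control, a log2 fold change of -0.07 ± 0.09 (SE). Edar had 334, 318 and 380 in ecko and 345, 325 and 296 in control, a log2 fold change of 0.11 ± 0.11 (SE), or 0.004 without ecko 3 and 0.07 without control 3.

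**Figure D3:**
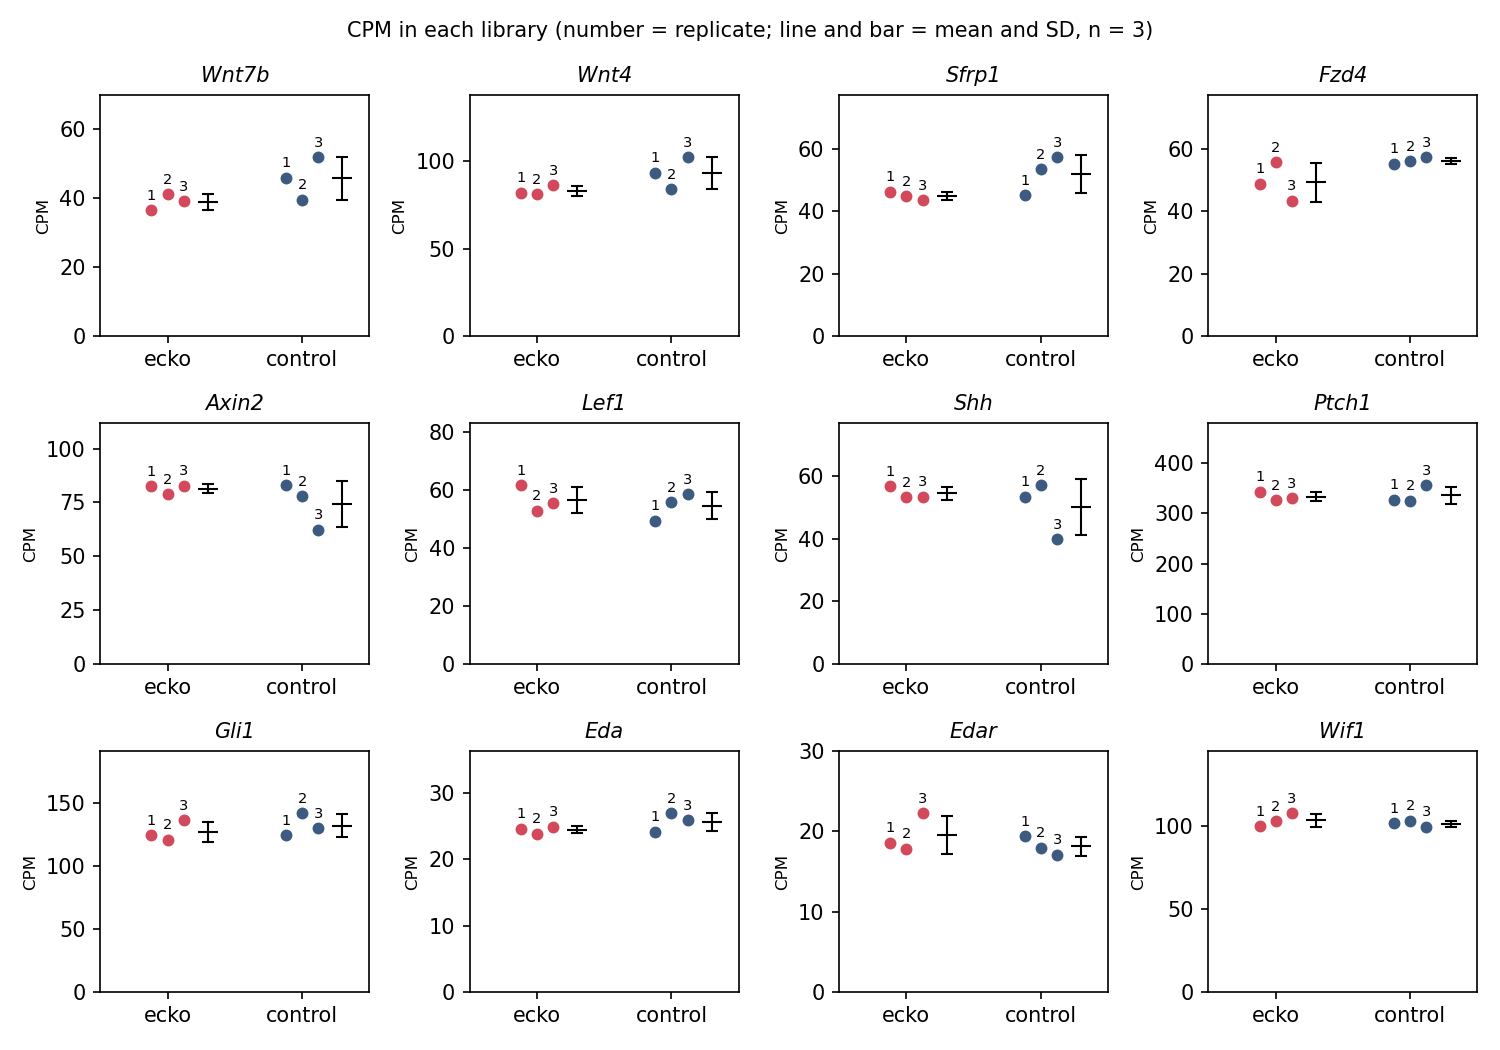
CPM in each library for 12 of the genes, from 0, with ecko left and control right, the replicate number above each point and the mean with SD (n = 3) to the right of each group. Control 3 is low in Axin2 and Shh and high in Wnt7b, Wnt4 and Sfrp1, and the groups overlap in every panel.

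Control 3 deviated most from the gene means among the 42 genes, and over all genes it was most often the highest or the lowest library. Control 3 was the lowest library for 14 genes and the highest for 12, control 2 was the highest for 14, and control 1 was the lowest for 11. The ecko libraries were the highest for 4 to 6 genes each and the lowest for 3 to 5. Over all genes tested, control 3 was the lowest in 29.3% and the highest in 27.5%, control 2 the highest in 16.2%, control 1 the lowest in 13.8%, and ecko 1 the highest in 19.3% and the lowest in 21.1%. For the 42 genes, the mean absolute deviation from the gene mean was 0.18 log2 units in control 3, against 0.09 to 0.12 in the other 5 libraries. Controls 1 and 2, at 0.11 and 0.12, lay close to ecko 3 at 0.11. A value over all genes is not given here. Below the mean in control 3 stood Wnt7a (-0.84), Shh (-0.38), Wnt3 (-0.37), Axin2 (-0.32), Wnt16 (-0.25) and Wnt3a (-0.23), and above it Wnt2 (0.50), Wnt7b (0.30), Sfrp2 (0.27), Sfrp1 (0.25), Sfrp4 (0.24) and Dkk1 (0.22). These deviations, in log2 CPM, were read from the values and carry no test.

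**Figure D4:**
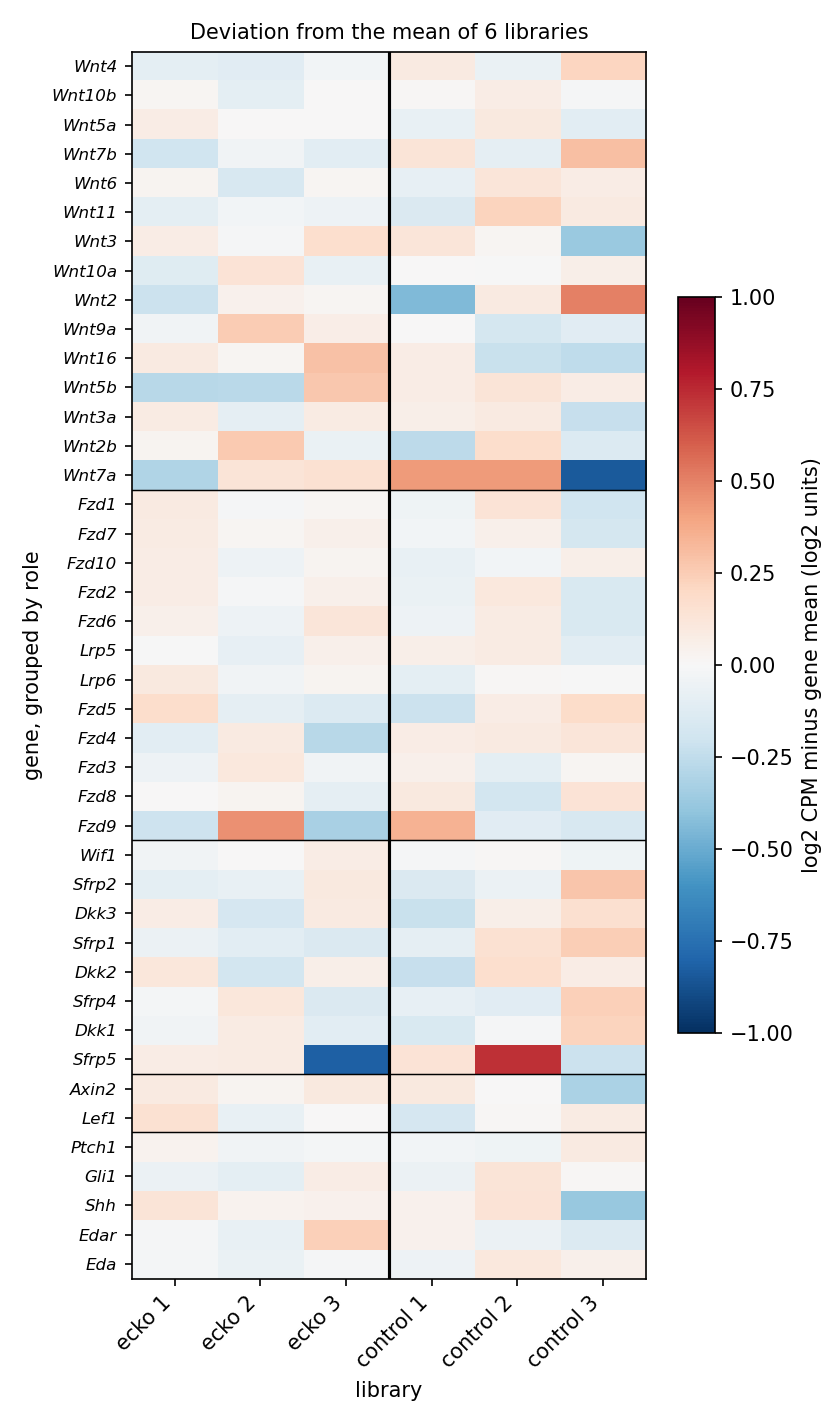
Deviation of log2 CPM from the gene's mean over 6 libraries, by library (ecko left of the line, control right) and gene, grouped by role. Red is above and blue below the mean, in log2 units. In control 3, Wnt7a, Shh, Wnt3 and Axin2 are low and Wnt2, Wnt7b and Sfrp2 are high, and the low-count gene Sfrp5 is far below its mean in ecko 3 and far above it in control 2.

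Ligand and target levels were also correlated over the 6 libraries in 6 pairs chosen after the values were seen (Shh with Ptch1, Shh with Gli1, Eda with Edar, Wnt10b with Lef1, Wnt10b with Axin2, Lef1 with Shh). None passed. Shh and Ptch1 had the largest Pearson r, -0.76 (exact permutation p = 0.108, adjusted 0.648), with a Spearman rho of -0.43 (exact permutation p = 0.419, adjusted 0.803). Without controls 2 and 3, the libraries farthest from the median of Shh, r was 0.98, so the sign rests on those libraries. Pearson r of the other 5 pairs ran from -0.27 (Eda with Edar) to 0.27 (Wnt10b with Lef1), with an exact permutation p of 0.612 or above. Without the 2 libraries farthest from the median of the first gene, r was 0.77 for Eda with Edar, 0.83 for Wnt10b with Axin2, -0.71 for Lef1 with Shh, 0.05 for Wnt10b with Lef1 and -0.15 for Shh with Gli1. With 4 libraries left, these values carry no test, and the first and the last changed sign.

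Partners of these pathways were examined in 4 lists, and 0 members passed in either direction. Of 27 Wnt secretion, R-spondin and cell surface genes, ecko means were higher in 12 and lower in 15, and the median log2 fold change was -0.04. The smallest p values were those of Trabd2b, which encodes a protease that inactivates Wnt proteins (-0.27 ± 0.11, edgeR adjusted p = 0.543), and Kremen1, a Dickkopf receptor gene (0.14 ± 0.07, adjusted p = 0.594). Without control 3 these log2 fold changes were -0.17 for Trabd2b and 0.08 for Kremen1. Trabd2b alone of these 27 genes was at an unadjusted p under 0.05. Over all genes, 4.10% were lower and 4.92% higher at that level. Of 27 genes of intracellular transduction the median was -0.03, with 1 at an unadjusted p under 0.05, Ctnnbip1. It encodes an inhibitor of the beta-catenin and TCF interaction and had 1611, 1643 and 1558 counts in ecko and 1802, 1769 and 1868 in control. All ecko libraries were below all controls, with a log2 fold change of -0.17 ± 0.06 (edgeR adjusted p = 0.498). Of these 27 genes, groups did not overlap in 1 higher and 3 lower, against 7.55% and 8.11% of all genes. Tcf7, a TCF factor gene, had -0.14. The 17 Wnt target and feedback genes had a median of -0.06, with -0.16 each for Twist2, a dermal transcription factor gene, and the cell cycle gene Ccnd1. Among 19 hedgehog and ectodysplasin partners the median was -0.004. Groups did not overlap in 1 higher and 3 lower of the 19, against 7.55% and 8.11% of all genes. Among those were the 2 with the smallest p in the list. Relb, an NF-kappaB subunit gene, had -0.23 and Disp1, needed for the release of hedgehog ligands, had 0.17. Their edgeR adjusted p were 0.584 and 0.600. Relb was -0.14 without control 3.

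Hair shaft and follicle sheath genes had mostly lower means in ecko, without passing the test. Ecko means were lower in 29 of 32 follicle structure and matrix genes, at a median log2 fold change of -0.11, and 0 passed. The median over all genes was -0.002. The lean depended on control 2: without it 20 of 32 were lower and the median was -0.02. Without control 1 the median was -0.21, with 14 genes lower at an unadjusted p under 0.05 in place of 1. Over all genes, 4.10% were lower at that level with all libraries kept. That share without control 1 is not given here, so how far the rise to 14 was particular to the list was not tested. Without control 3 the median of the list was -0.10 with 29 lower. With all libraries kept, the groups overlapped in all 32. The hair keratin-associated gene Krtap3-3 had 525, 433 and 409 counts in ecko and 467, 719 and 662 in control (-0.43 ± 0.16, edgeR adjusted p = 0.513), and the hair keratin gene Krt35 had 2612, 2369 and 2131 in ecko and 2321, 3038 and 2705 in control. The summed level of the list was 6447, 6097 and 5659 CPM in ecko and 5513, 7495 and 6670 CPM in control, so control 1 was the lowest library and control 2 the highest. The 22 dermal papilla and condensate genes had a median of 0.006, with 0.15 for Pdgfra, a fibroblast receptor gene, and 0.13 for the growth factor gene Bmp4 (626, 576 and 618 counts in ecko, 560, 568 and 540 in control). Of the 13 skin markers, 6 had a higher and 7 a lower mean in ecko, and only Krt15 had groups without overlap. Over all genes, 15.7% had groups without overlap. Krt15, a basal keratin gene, was lower in all ecko libraries, with 11561, 11545 and 11921 counts in ecko and 12698, 13466 and 13151 in control (-0.16 ± 0.06, edgeR adjusted p = 0.531). In the cartilage and muscle lists 0 members passed. Acan and Sox9 of cartilage had log2 fold changes of -0.10 and 0.11, and Myh3 and Actn3 of muscle 0.45 and -0.11. Myh3 had 2174, 2118 and 2112 counts in ecko and 2119, 1586 and 1027 in control, where control 3 was lowest. Without control 3 the log2 fold changes were 0.001 for Acan, -0.04 for Sox9, 0.23 for Myh3 and -0.20 for Actn3. Of the 14 muscle genes, 12 had a higher mean in ecko, against 2 without control 3 and 6 without ecko 1.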

How the data were processed

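The authors deposited expected counts, estimated reads per gene from poly(A) RNA of 6 libraries; this unit rests on the values, since 10.1% to 10.4% of them per library are not whole. Per the submitters' processing notes, RSEM 1.3.1, HISAT2 2.2.1, Bowtie2 2.4.5 and GRCm38.p6 were used, in roles not given. Annotation and strand setting are not given in the sources used here, so reads of a gene and an opposite-strand partner cannot be told apart. Exons of 9 of the genes overlap such a partner in GENCODE M21 (Shh, Axin2, Lef1, Gli1, Wnt7b, Wnt11, Fzd5, Fzd6 and Sfrp2).

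Rounded counts were tested by edgeR 4.0.16 (R 4.3.3; filterByExpr with a minimum count of 10, TMM, robust quasi-likelihood fit), two-sided, with Benjamini-Hochberg adjustment over 14920 genes and a threshold of 0.05. The SE was computed from the log2 fold change and the F statistic. CPM per kb used the union of GENCODE M21 exons. Alternatives were other scaling and filters, DESeq2 1.42.0, limma-voom (limma 3.58.1), a replicate block, a muscle covariate and leaving out each library. The fit was tested on simulated data. An exact permutation test of 3 against 3 cannot go below 0.1. Every pair of libraries differed by more than sampling noise. Depth covers counting error only. Genes, lists and correlated pairs were chosen with earlier results of these data known. Per-library values are given for the 2 highest genes per role, for those at an unadjusted p under 0.05, for Lef1, Axin2, Shh, Ptch1, Gli1, Eda, Edar, Lrp5, Lrp6 and Wif1, and for the 2 smallest p per list, some by fold change alone. Other genes were chosen after their values were seen. Promoters are from RefSeq (GRCm38.p6).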

Additional observations from a re-analysis of the deposited data

How the results depend on the processing

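Under every alternative run, 0 of the 42 genes were called, and the smallest adjusted p among them was 0.225 (without control 1). The number of genes called over the whole table did depend on the test. Higher and lower calls numbered 87 and 26 with DESeq2, 88 and 10 with the replicate block, and 59 and 7 with a covariate for skeletal muscle. Leaving out 1 library gave 0 to 2 higher (2 without ecko 3) and 1 lower. The cause was not tested. Whether the replicate numbers pair the libraries is not given by the labels and was not tested. Libraries of equal number had correlations of 0.162, -0.237 and -0.0726 between their deviations from the group means. Control 2 correlated best with ecko 3 (0.336), the 2 libraries with almost no Ddx3y counts.

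At an unadjusted p under 0.05, 0 genes of the set were lower with DESeq2 and with limma-voom, and 1 under either the replicate block or the muscle covariate. Leaving out 1 library gave 0 to 2 (0 without ecko 1 or control 3). Higher genes numbered 0 to 1 (1 without control 1). Groups without overlap numbered 0 to 5 higher and 1 to 6 lower with 1 library left out, where 3 against 2 libraries overlap less easily. The share of all genes without overlap in those settings is not given here, so these counts have no background beside them. The median log2 fold change of the 42 ran from -0.021 to 0.022 with 1 library left out and was 0.012 with the muscle covariate. The block and covariate fits and DESeq2 and limma-voom give no count of overlap.

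Signs near 0 were not stable. With the muscle covariate the log2 fold change was 0.008 for Fzd5 and Dkk1, 0.002 for Ptch1, 0.019 for Wnt2, 0.018 for Dkk2, 0.048 for Dkk3, 0.010 for Sfrp2 and 0.014 for Sfrp4. Dkk3 was 0.000 with no low-count filter and with the replicate block, and 0.001 with limma-voom. With 1 library left out the ranges were Fzd1 -0.010 to 0.149, Fzd10 -0.003 to 0.074, Fzd3 -0.033 to 0.044, Fzd5 -0.139 to 0.059, Fzd8 -0.139 to 0.024, Fzd9 -0.330 to 0.165, Lrp5 -0.075 to 0.010, Ptch1 -0.039 to 0.036, Shh -0.013 to 0.222, Wnt10a -0.118 to 0.011, Wnt2 -0.363 to 0.111. They were also Wnt3a -0.045 to 0.105, Wnt7a -0.433 to 0.075, Lef1 -0.016 to 0.111, Dkk1 -0.129 to 0.067, Dkk2 -0.120 to 0.076, Dkk3 -0.109 to 0.086, Sfrp2 -0.144 to 0.080, Sfrp4 -0.102 to 0.092, Wif1 -0.002 to 0.050, Acan -0.160 to 0.001, Sox9 -0.038 to 0.212. Among genes whose single values were recomputed under every alternative, no other changed sign. Further members of the lists did, as their counts without 1 library show. Leaving out each library for the follicle structure and endothelial lists was added after seeing the data. Without control 3, 12 of the 42 changed sign, against 4 to 6 without any other library. Fzd9, Sfrp5 and Wnt7a, with under 50 counts per library on average, could hide changes that the deeper genes would show.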
